A study of Trametes cinnabarina with 16 samples.

Results

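In cultures of the white-rot fungus Pycnoporus cinnabarinus (also named Trametes cinnabarina), 56 of the 27990 genes of the transcript assembly stood high in all 3 cellobiose libraries and at least 4 times lower, though not always low, in all 13 others. These genes were chosen by their levels. The lowest cellobiose value had to reach 10 TPM, a transcript abundance corrected for length that sums to 1000000 in each library, and be at least 4 times the highest value in any other library. Because that choice used every library, cellobiose levels and their ratios to other substrates are given below as a description, with no test.

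Cellobiose is a disaccharide of glucose units joined by a beta linkage, and it is the main soluble product released when cellulases act on cellulose. Filamentous fungi split it with beta-glucosidases or oxidise it outside the cell with cellobiose dehydrogenase, and it is known in several species as an inducer of genes for plant cell wall breakdown. White-rot basidiomycetes such as this species degrade the lignin as well as the polysaccharides of wood. None of the 56 genes could be tied to such a role here: the files name genes only by assembly identifiers, and 0 of these matched a reference list of 10441 genes of the species, so the genes are described by identifier, level and pattern alone.

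RNA came from whole cultures of strain PB94, grown on semi-minimal medium for at least 5 days, in 16 libraries. Without added substrate there were 3 libraries (control); cultures on cellobiose, maltose, poplar and switchgrass also gave 3 each, and those on glucose 1. The labels do not say that replicates were separate cultures, so the spread and the p-values below may be technical. Control and soluble-sugar libraries (10) were made from poly-A RNA, whereas for the plant libraries (6) ribosomal RNA was removed, so preparation and substrate cannot be told apart when poplar or switchgrass is set against control.

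Read depth is unknown, because TPM does not keep it, and a value of 0 is reported only as listed at 0. The third maltose library stood apart, with 83.7% of its TPM in its 10 most abundant genes, as did the second poplar library (75.3%) and the third switchgrass library (50.8%); the other poly-A libraries had 6.57% to 12.7%. The deposited tables hold the same values in 16 of 16 columns but give none of them the same name (0 of 16). The names used here are those of the table presented as holding counts; in the other table the libraries called cellobiose here are named poplar, and the same 56 genes then meet the rule with poplar as the high group. Every substrate name below rests on that choice.

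The rule narrowed the assembly in steps. In 7962 genes the lowest cellobiose value was at least 10 TPM, in 960 of those it was above every other library, and in 56 it was 4 times above. With control, maltose, poplar or switchgrass as the high group, the same rule found 1, 0, 0 and 2 genes. Maltose gave 0 because of maltose replicate 3: without it the rule found 390 genes high on maltose, while the count for cellobiose stayed at 56. The 390 rest on the first and second maltose libraries alone, and the rule is easier to meet with fewer libraries. With 1 cellobiose library left out instead, the count for cellobiose was 58 to 69.

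Together the 56 genes made up a far larger share of the library on cellobiose than elsewhere. They summed to 100679, 101686 and 98656 TPM in the cellobiose libraries, which is 10.03% ± 0.154 (SD, n = 3) of all TPM. In the control libraries they summed to 6683, 6651 and 7005 TPM (0.678% ± 0.020), and in the glucose library to 4562 TPM (0.456%). The cellobiose and control libraries each lay close together and far from one another. On maltose the sums were 4374, 5520 and 177 TPM, on poplar 738, 265 and 689 TPM, and on switchgrass 1980, 3099 and 4788 TPM. All 3 poplar sums were below all 3 switchgrass sums, and the third maltose library was the lowest of all 16. In bulk cultures, fewer expressing cells and less RNA per cell cannot be told apart.

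**Figure D1:**
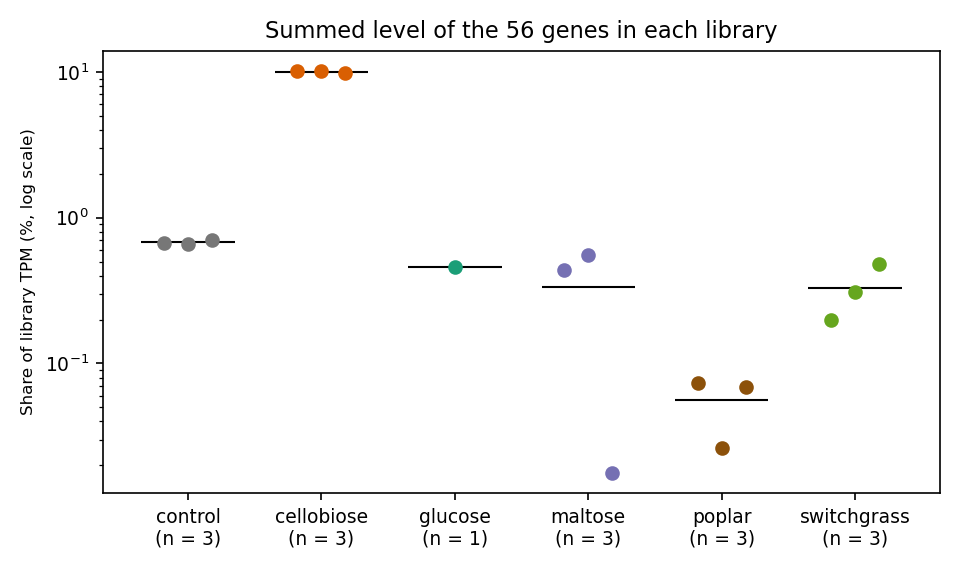
Share of each library's TPM held by the 56 genes (percent, log scale), 1 point per library and a line at the group mean, by substrate. The cellobiose libraries sit at 9.87% to 10.2%, every other library is at 0.700% or less, and the third maltose library is lowest at 0.018%.

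The total was carried by few genes. By mean cellobiose level, 20 of the 56 were at 1000 TPM or more, 24 between 100 and 1000, and 12 below 100. TR9940__c5_g1 was the most abundant gene of the whole assembly on cellobiose, at 29320, 28280 and 27117 TPM in the 3 libraries. It was at 905, 1004 and 956 TPM in control, 809 in glucose, and 596, 800 and 41.2 in maltose. Its cellobiose libraries stood at least 20.02 times above every other library, the highest of which was the third switchgrass library at 1355 TPM. TR9940__c4_g2, next after it among the 56, was at 7899, 10551 and 9751 TPM on cellobiose and at 926, 1367 and 1339 TPM in control. TR5320__c0_g1, the next, was at 9380, 8392 and 7573 TPM on cellobiose, at no more than 61.8 TPM in any poly-A library of another group, and at 0, 101 and 393 TPM in switchgrass. Of the 10 most abundant genes of each cellobiose library, 5 were among the 56; in every other library none was (0 of 10).

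The 56 genes differed widely in how sharply cellobiose stood out. The ratio of the lowest cellobiose value to the highest other value had a median of 7.07 and ran from 4.05 to 30.1, with 19 genes at 10 or more, 7 at 20 or more and 9 below 5. TR15638__c0_g1 had the highest ratio: it was at 3234, 3004 and 3136 TPM on cellobiose and reached 99.9 TPM only in the third switchgrass library. TR214__c0_g1 followed at 27.7, with 147, 179 and 154 TPM on cellobiose and at most 5.29 TPM elsewhere. TR15471__c0_g1 was at 20.7, 64.1 and 41.6 TPM on cellobiose and below 1 TPM in all 13 other libraries. A high ratio was thus found at both ends of the range of levels.

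The genes nearest to the thresholds show how the set was bounded. Just inside the ratio were TR18612__c0_g2 (4.05), at 51.4 to 53.6 TPM on cellobiose against 12.7 TPM in the third control library, and TR639__c0_g1 (4.10), at 1960 to 2805 TPM against 479 TPM in glucose. Just outside were TR14755__c1_g1 (3.94), at 3053 to 4188 TPM on cellobiose, and TR9451__c1_g1 (3.89), at 2784 to 3271 TPM. On this side the edge was crowded, with 23 genes at a ratio of 3 to 4 and 9 at 4 to 5. On the level side it was sparse. TR12212__c0_g1 (lowest cellobiose value 10.5 TPM) and TR2014__c0_g1 (11.6 TPM) were just inside, TR11930__c0_g1 (4.10 TPM) and TR15511__c0_g1 (3.14 TPM) were the nearest outside, and no gene that met the ratio lay between 5 and 10 TPM.

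**Figure D2:**
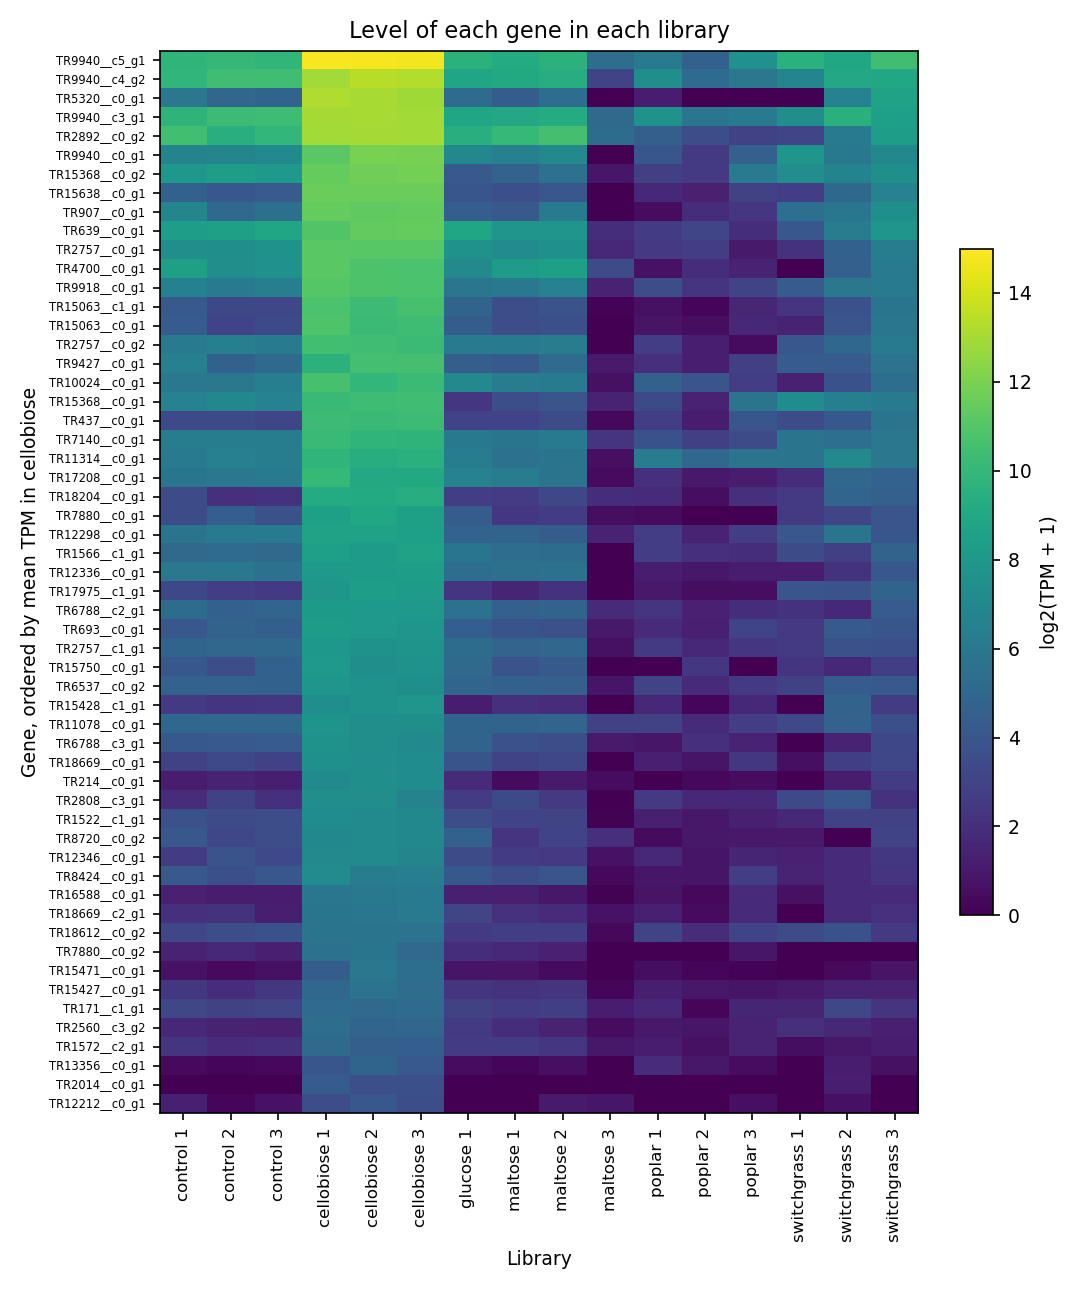
Level of each of the 56 genes (rows, ordered by mean TPM on cellobiose) in each of the 16 libraries (columns), as log2(TPM + 1). The cellobiose columns are brightest in every row, as the choice of genes requires; the third maltose and the poplar columns are darkest, and many top rows are intermediate in control.

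Most of the genes were expressed at a lower level on other substrates too. All but 4 (52 of 56) had at least 1 TPM in at least 3 of the 13 other libraries. After cellobiose, the highest mean was in glucose for 22 genes, in control for 20, in switchgrass for 13, in poplar for 1 and in maltose for 0; glucose is 1 library, so its place rests on a single value. The count for maltose rests on maltose replicate 3: with that left out of the mean, maltose came next for 3 genes, TR2892__c0_g2, TR4700__c0_g1 and TR9918__c0_g1 (the last named after its values were seen), and control for 17. The genes with control next had a median of 1100 TPM on cellobiose and 71.0 TPM in control. Those with glucose next were lower, with medians of 190 and 25.9 TPM, and those with switchgrass next had medians of 762 TPM on cellobiose and 25.4 TPM in switchgrass. TR639__c0_g1 was the highest of the glucose group, at 479 TPM in glucose and 320, 365 and 442 TPM in control. TR2757__c0_g1 was next, at 209 TPM in glucose and 169, 174 and 199 TPM in control. In each the glucose library was above the control libraries but close to the highest of them. TR13356__c0_g1 was the gene with poplar next, at 2.71, 0.94 and 0.39 TPM in poplar against 0.31, 0.14 and 0.27 TPM in control, and at 15.4, 27.4 and 17.5 TPM on cellobiose. TR2014__c0_g1 was listed at 0 in 12 of the 13 other libraries and was at 1.42 TPM in the second switchgrass library.

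The glucose library, the sugar that cellobiose yields, was above all 3 control libraries in 21 of the 56 genes (37.5%, against 37.6% of the 23981 genes tested) and below all 3 in 20 (35.7%, against 21.5%). Of genes with at least 10 TPM in every cellobiose library, 43% were above and 26.8% below. With 1 library there is no test of this difference. TR15368__c0_g2 was one of the lower genes, at 17.0 TPM in glucose and 255, 324 and 275 TPM in control. Its component neighbour TR15368__c0_g1 was at 4.11 TPM in glucose and 99.3, 126 and 97.6 TPM in control. Across the 6 poly-A libraries of control, glucose and the first and second maltose cultures, 54 of the 56 genes had a value above 0 in each. In 21 of these 54 (38.9%) the highest and lowest of the 6 libraries were within 2-fold, against 80.7% of the 7938 such genes among those with at least 10 TPM in every cellobiose library. The median range was 2.15-fold for the 54 genes and 1.54-fold for the 7938. The sets were not matched for level in these 6 libraries. There the median of the 56 genes was 12.3 to 21.0 TPM per library. For genes with at least 10 TPM in every cellobiose library it was 32.6 to 42.6 TPM. The part of level in the difference of range was not tested.

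Replicates on cellobiose varied about as much in these genes as in others. The coefficient of variation over the 3 libraries had a median of 12.6% (range 1.75% to 51.4%), against 12.9% for all genes with at least 10 TPM in every cellobiose library. TR171__c1_g1 was the steadiest, at 36.4, 35.2 and 36.2 TPM, followed by TR18612__c0_g2 at 53.6, 52.9 and 51.4 TPM. TR15471__c0_g1, given above, and TR17208__c0_g1, at 1064, 527 and 558 TPM, varied most. The first cellobiose library lay outside the other two in 50 of the 56 genes (89.3%) and in 85.8% of the wider set, so this trait was not confined to the 56.

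Several of the genes came from the same assembly component, a cluster of overlapping contigs that can hold parts or copies of 1 locus. The 56 genes belonged to 46 components, of which 7 held more than 1 of them, for 17 genes in all, so the 56 are not 56 independent observations. TR9940 held 4: TR9940__c5_g1, TR9940__c4_g2, TR9940__c3_g1 and TR9940__c0_g1. Together these were 47.2%, 50.3% and 49.1% of the TPM of the 56 genes in the cellobiose libraries, and 4.75%, 5.12% and 4.84% of the whole library. They did not share a single ratio to control. TR9940__c5_g1 had a mean of 28239 ± 1102 TPM on cellobiose and 955 ± 49.4 in control (SD, n = 3 each), a ratio of 29.6, and TR9940__c0_g1 had 3407 ± 985 and 119 ± 17.5, a ratio of 28.6. TR9940__c4_g2 had 9400.2 ± 1360 and 1211 ± 247 (7.76), and TR9940__c3_g1 had 7978 ± 293 and 1139 ± 226 (7.01). The first pair of genes thus stood nearly 30 times above control and the second pair 7 to 8 times.

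Among components with more than 1 of the 56 genes, TR15368 had the next highest level, with TR15368__c0_g2 at 2830, 3415 and 3707 TPM on cellobiose and TR15368__c0_g1 at 1085, 1308 and 1332 TPM. The pair kept a ratio to control of 11.6 and 11.5. Of the 41 other genes in the 46 components, 13 (31.7%) also had their lowest cellobiose value above every other library, against 4.55% of the 27893 genes in other components. These shares are a description, since the components were picked through genes chosen on the same values. They are not matched for level: of genes with at least 10 TPM in every cellobiose library, 960 of 7962 met this condition. The 13 include TR2892__c0_g1, whose values are duplicated as given below. Shared sequence can make genes of a component share reads, and this was not tested. An isoform of TR2892__c0_g2, a gene at 7764, 8211 and 7875 TPM in all on cellobiose, has exactly the values of TR2892__c0_g1 in every library, so the level of that gene is uncertain. Such identical values are rare, with 4 among the 32806 transcripts above 0 in at least 8 libraries.

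**Figure D3:**
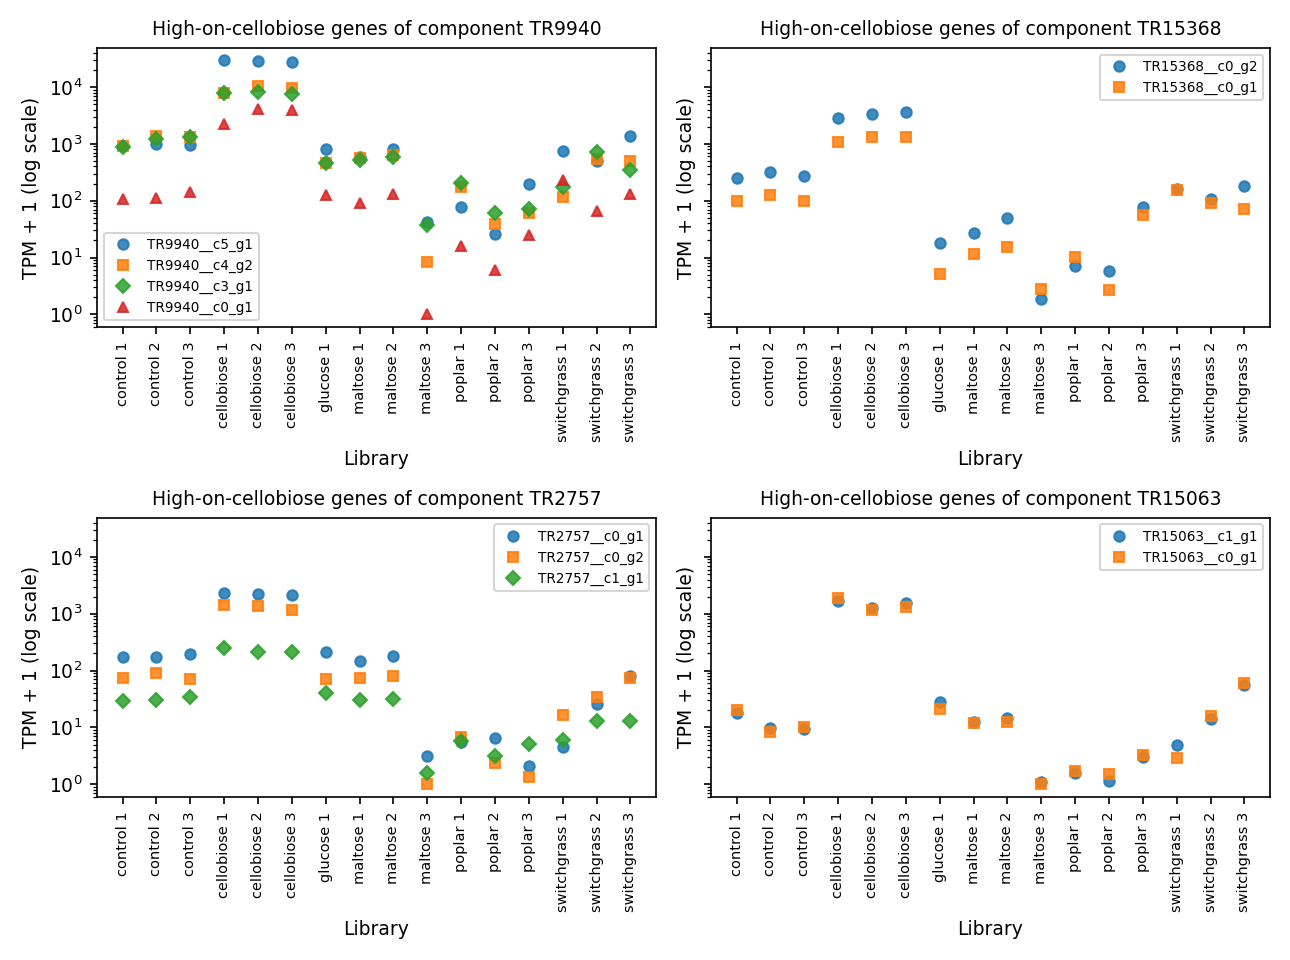
TPM + 1 (log scale) in each of the 16 libraries for the genes of the components TR9940, TR15368, TR2757 and TR15063 that are among the 56; each marker shape is 1 gene. In TR9940 the cellobiose points of TR9940__c5_g1 (27117 to 29320 TPM) stand above those of the other genes although its control points (905 to 1004 TPM) do not, and in TR15368 the glucose and maltose points fall below control.

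Most of the 56 genes were assembled as a single isoform (41, or 73.2%, against 63.7% of genes with at least 10 TPM in every cellobiose library). Of the 15 with more, 14 had the same leading isoform in all 3 cellobiose libraries, and in 8 at least 2 isoforms each met the rule. In TR2892__c0_g2 the second isoform had a mean of 2675 TPM on cellobiose, the highest second isoform of the set, and it is the one with the duplicated values. In TR9940__c5_g1 the second isoform was at 2100.1, 2168 and 2041 TPM on cellobiose and 142, 231 and 191 TPM in control. Its leading isoform made up 88.1%, 85.5% and 84.2% of the gene on cellobiose, 68.5%, 57.3% and 67.4% in control, and 92.6% in glucose. In the first and second maltose libraries it made up 88.9% and 88.8%. The share of that isoform was thus above control in these sugar libraries and not on cellobiose alone.

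The leading isoform's share could be compared with control in 9 of the 56 genes, those with more than 1 isoform and at least 10 TPM in every library of both groups. It did not overlap between the groups in 2, which is near the 20.3% of the 2612 such genes in the assembly. Besides TR9940__c5_g1 this was TR1522__c1_g1, named after its values were seen. Its leading isoform on cellobiose made up 35.5% ± 3.4 of the gene there and 81.0% ± 13.6 in control (SD, n = 3 each), and 54.2% in the glucose library.

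**Figure D4:**
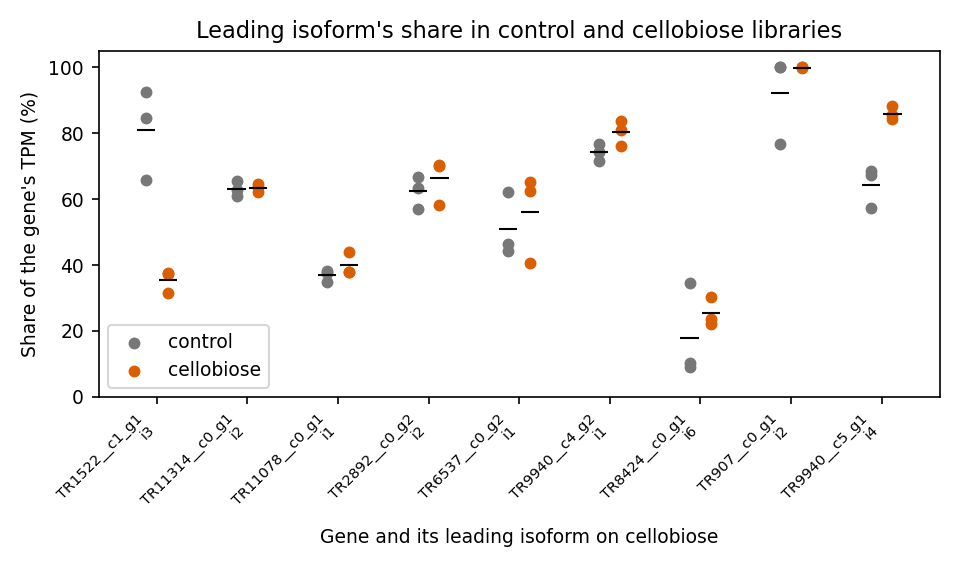
Share of the gene's TPM (percent) held by its leading isoform on cellobiose, for the 9 genes with more than 1 isoform that could be compared, with 1 point per control or cellobiose library and a line at each mean. The points separate in TR1522__c1_g1 (lower on cellobiose) and TR9940__c5_g1 (higher on cellobiose) and overlap in the other 7.

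The rule set only a ceiling on the other substrates, so these were compared with one another by limma on log2(TPM + 1), fitted to all 16 libraries and adjusted over all 23981 tested genes by the Benjamini-Hochberg method. All 56 genes passed the filter of at least 1 TPM in at least 3 libraries, which their cellobiose values ensured. TR15471__c0_g1, TR13356__c0_g1, TR2014__c0_g1 and TR12212__c0_g1 passed only through those values, and their tests carry no weight. None of the 4 was called in the comparisons below. They remain in the 56 of every count, share and median below, where they carry no weight either. A gene was called at an adjusted p under 0.05. With 3 libraries against 3 an exact test of a single gene cannot give a p below 0.1 and was not run. The comparisons with control share the same control libraries, so they are not independent.

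On maltose, a disaccharide of starch, 24 of the 56 genes were below control without overlap of libraries (42.9%, against 21.8% of all tested genes and 36.8% of those with at least 10 TPM in every cellobiose library). None was called by limma (0 calls; 0.00417% of all genes were called; at an unadjusted p under 0.05 there were 11 of the 56, or 19.6%, against 6.34% of all tested genes). The smallest adjusted p was 0.454, for TR15368__c0_g2. This gene was at 25.6, 49.3 and 0.86 TPM on maltose, with a log2 fold change of -4.39 ± 1.11 (SE). With maltose replicate 3 left out it was called, with an adjusted p of 0.04999 (limma), the only one of the 56 (1.79%). In that fit 3.95% of all tested genes were called in either direction, and 0.188% were called lower. TR15368__c0_g1 was at 10.7, 14.4 and 1.81 TPM on maltose. Both genes of the component were thus lower than in every control library in all 3 maltose libraries as well as in glucose. The median of the log2 fold changes of the 56 was -1.38, against -0.61 over all tested genes. In genes with at least 10 TPM in every cellobiose library it was -1.25, near that of the 56. Without the third maltose library the medians of the 56 and of all tested genes were -0.20 and -0.08.

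On poplar most of the 56 genes were lower than in control, as were most genes with at least 10 TPM in every cellobiose library. Without overlap of libraries, 45 were below control (80.4%) and 1 above (1.79%, against 6.1% of all tested genes). The gene above control, TR13356__c0_g1, passed the filter only through its cellobiose values. The share below was 39.6% of all tested genes but 74.6% of those with at least 10 TPM in every cellobiose library, near that of the 56. By limma 25 fell and none rose (44.6% lower, against 8.6% of all tested genes and 19.2% of the wider set). TR7880__c0_g1, with the smallest p, was listed at 0.37, 0 and 0 TPM in poplar and at 10.1, 21.0 and 12.4 TPM in control, and its log2 fold change was -3.74 ± 0.70 (SE; limma adjusted p = 0.00260). TR4700__c0_g1 was at 0.68, 2.91 and 1.75 TPM in poplar and at 367, 172 and 194 TPM in control, a log2 fold change of -6.46 ± 1.31 (limma adjusted p = 0.00494). Neither gene overlapped between the groups.

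The number called on poplar depended on single libraries. Leaving out poplar replicate 1, 2 or 3 gave 9, 6 or 20 calls, with 869, 864 or 3399 over all tested genes in either direction. Leaving out control replicate 1, 2 or 3 gave 7, 5 or 7, with 699, 651 or 876 over all tested genes. With no library left out 2594 of all tested genes were called. Leaving out maltose replicate 3, which enters only through the shared spread, gave 40. That is 71.4% of the 56, against 31.5% of all tested genes and 67.8% of the wider set in the same fit. After median-of-ratios scaling the median over the tested genes was 0.22 in place of -0.74 on the log2 scale and that of the 56 was -1.17 in place of -2.56. The median of the wider set was -0.28 in place of -1.91. Of the 56, 11 were then called lower (19.6%, against 5.02% of all tested genes and 12.8% of the wider set). TR13356__c0_g1, at the values given above, was the 1 gene above control without overlap; it entered the tests only through its cellobiose values, so its p is not given.

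On switchgrass the 56 genes spread around and below control. Without overlap, 25 were below (44.6%; 37.4% of all tested genes were, and 70.3% of those with at least 10 TPM in every cellobiose library) and 2 were above (3.57%, against 8.16% of all tested genes). None was called by limma (0 calls; 7.34% of all tested genes were called; 11 of the 56, or 19.6%, had an unadjusted p under 0.05, against 25.6% of all tested genes; smallest adjusted p 0.0514). With maltose replicate 3 left out 20 were called, 1 higher and 19 lower (35.7%, against 28.5% of all tested genes and 46.6% of those with at least 10 TPM in every cellobiose library). With switchgrass replicate 3 left out 4 were called, all lower, against 1237 of all tested genes in either direction. The direction rested on the scaling: as deposited 14 of the 56 fold changes were above 0 and 42 below, and after median-of-ratios scaling 31 were above and 25 below, with 1 gene below control without overlap in place of 25 (1.79%, against 20.9% of all tested genes and 36.4% of the wider set). TR17975__c1_g1 and TR437__c0_g1, named after their values were seen, were those above control. TR17975__c1_g1 was at 14.8, 13.1 and 27.6 TPM in switchgrass and 8.42, 5.56 and 4.95 TPM in control. TR437__c0_g1 was at 10.2, 16.4 and 54.0 TPM in switchgrass and 8.97, 9.06 and 7.94 TPM in control.

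The plant substrates, which share a preparation, were then compared directly. The 56 genes lay mostly higher on switchgrass than on poplar. The 3 switchgrass libraries were all above the 3 poplar libraries in 20 of the 56 (35.7%, against 2.83% of all tested genes and 2.86% of those with at least 10 TPM in every cellobiose library), and in none were they all below. After median-of-ratios scaling the count was 14, against 6.03% of the wider set. The fold change was above 0 in 52 of the 56, with a median log2 of 1.40 against 0.27 over all tested genes and 0.55 in the wider set. After scaling it was above 0 in 48, with medians of 1.08, -0.03 and 0.02. Genes that passed the filter only through their cellobiose values are counted here. Of these, TR15471__c0_g1, TR2014__c0_g1 and TR12212__c0_g1 were above 0 before scaling (0.05, 0.43 and 0.02), and TR13356__c0_g1 was below (-0.50).

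No single gene of the 56 passed the test between the plant substrates (limma, 0 calls; 0.025% of all tested genes were called; at an unadjusted p under 0.05 there were 19 of the 56, or 33.9%, against 4.38% of all tested genes). With maltose replicate 3 left out 7 were called, all higher on switchgrass (0.0876% of all tested genes were called higher), and with scaling 5, all higher (0.142%). Without the first switchgrass library 1 was called, against 11 over all tested genes, and 38 did not overlap. Lack of overlap is easier to reach with fewer libraries. The share of all tested genes was not computed for that setting, so the 38 cannot be set against the count from all libraries. The following genes were named after their values were seen. TR17975__c1_g1 had the smallest p: it was at 1.04, 0.47 and 0.48 TPM on poplar, against the switchgrass values given above, a log2 fold change of 3.50 ± 0.67 (SE; limma adjusted p = 0.109, and 0.00177 without the third maltose library). TR907__c0_g1 was at 43.7, 57.7 and 173 TPM on switchgrass and 0.40, 2.92 and 4.08 TPM on poplar, a log2 fold change of 4.67 ± 1.13 (limma adjusted p = 0.273). In these genes the switchgrass and poplar libraries were far apart, although the switchgrass libraries differed among themselves by 2- to 4-fold.

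Among the 5 most abundant of the 56 genes, the plant substrates did not overlap in TR9940__c5_g1 and overlapped in the other 4. TR9940__c5_g1 was at 762, 498 and 1355 TPM on switchgrass and 76.0, 24.5 and 194 TPM on poplar. TR9940__c4_g2 was at 116, 538 and 502 TPM on switchgrass and 169.9, 37.6 and 60.1 TPM on poplar, and TR9940__c3_g1 at 177, 729 and 353 TPM against 205, 58.8 and 71.4 TPM. In TR5320__c0_g1 and TR2892__c0_g2 too the first switchgrass library (0 and 7.65 TPM) was below the first poplar library (1.27 and 22.5 TPM). The next genes of the named components did not overlap. TR9940__c0_g1 was at 233, 65.8 and 129 TPM on switchgrass against 14.97, 4.97 and 23.7 TPM on poplar. TR15368__c0_g2 was at 163, 106 and 177 TPM on switchgrass and 6.11, 4.84 and 76.0 TPM on poplar, and TR15368__c0_g1 at 153.5, 89.7 and 69.3 TPM against 9.39, 1.69 and 54.5 TPM. The second poplar library was the lowest of the poplar libraries in each of the TR9940 and TR15368 genes; it is also the one whose 10 most abundant genes held 75.3% of TPM, and the part of this in the difference was not tested. With the 10 most abundant genes of each library left out, the 56 genes made up 0.114%, 0.107% and 0.0994% of the remaining TPM on poplar and 0.266%, 0.427% and 0.973% on switchgrass. On that scale the poplar libraries lay close together and below all switchgrass libraries. The switchgrass libraries stayed spread, highest in the third, whose 10 most abundant genes held 50.8% of TPM. The part of library make-up in the difference was not tested by this.

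**Figure D5:**
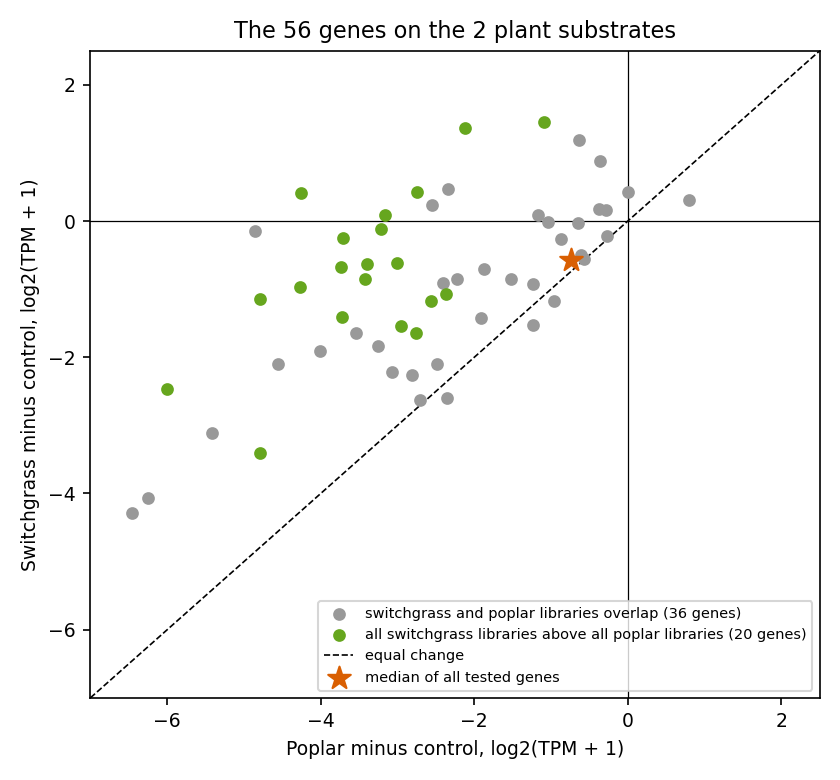
Log2 fold change of each of the 56 genes against control on poplar (horizontal) and on switchgrass (vertical), on the log2(TPM + 1) scale; the same 3 control libraries enter both axes. Green points are the 20 genes with all switchgrass libraries above all poplar libraries, the star is the median of all tested genes (-0.74 and -0.58), and 52 of the 56 points lie above the dashed line of equal change. Genes that passed the filter only through their cellobiose values are included. For genes with at least 10 TPM in every cellobiose library the medians, not drawn, were -1.91 and -1.35.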

How the data were processed

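For 16 libraries the authors deposited 2 tables with 45286 transcripts each. The deposited values are TPM, abundances that the authors corrected for transcript length and scaled to a total of 1000000 per library, as the file values show. RSEM is a tool that the submitters' processing notes name, with no role or version. The column sums were within 0.87 of that total, also in the table presented as holding counts, so tests for counts were not used. For the assembler, filters and annotation the sources used here give nothing. Isoforms were summed to 27990 genes. The 56 genes, the comparisons and the alternatives were chosen with earlier results of these data known.

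Genes needed 1 TPM or more in 3 or more libraries, which 23981 met, and these were tested with limma 3.58.1 (R 4.3.3, intensity trend) on log2(TPM + 1), which understates changes of low genes, with 6 group means and Benjamini-Hochberg adjustment. The comparisons of cellobiose were left untested, since the genes were selected on them. The test was checked on simulated libraries. In these each gene had the same spread in every library, so a library that stands apart was not covered. Tables and figures were made with Python 3.11.15, pandas 2.3.3, numpy 2.4.6 and matplotlib 3.10.9.

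Named genes were those with the highest levels or ratios, those nearest to the thresholds, the highest per next-highest group, the lowest and highest variation, the called genes with the smallest p, the components with the highest level and the highest second isoforms; others are marked as named after their values were seen. Same-numbered libraries of different groups did not deviate together, so replicate numbers were not taken as pairs. No gene list could be evaluated without annotation, and no sequences were used here.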

Additional observations from a re-analysis of the deposited data

How the results depend on the processing

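The number of genes meeting the rule was 56. It became 26 with a ratio of 8, 37 after median-of-ratios scaling (all among the 56), 99 with the poly-A libraries only, and 2 under the other table's column names (0 of them among the 56); without 1 cellobiose library it was 58 to 69. The counts called by limma were 0 for maltose, 25 for poplar, 0 for switchgrass against control and 0 for switchgrass against poplar. Over all tested genes, in either direction, 1, 2594, 1761 and 6 were called. Under the other names the counts of the 56 became 40 higher, 56 higher, 40 higher and 53 lower, so every direction turns with the names. Those over all tested genes were then 9206, 8304, 8299 and 340. The poplar libraries are then those called cellobiose here, on which the genes were chosen. The directions of the 56 and the 53 were set by that choice and are no test. TR7880__c0_g1 and TR4700__c0_g1 reversed on poplar to log2 fold changes of 8.51 and 9.49, which the choice also set. Both genes kept their calls in the other alternatives. Scaling gave 11 for poplar, 3 (all higher) for switchgrass and 5 for switchgrass against poplar, with 3848, 3616 and 110 over all tested genes. The 3 on switchgrass are 5.36%, against 10% of all tested genes called higher. A fit to the groups compared gave 38 for poplar and 6 for switchgrass, with 6337 and 6282 over all tested genes. A pseudocount of 0.1 gave 15 for poplar and 1 for switchgrass against poplar, with 1748 and 8 over all tested genes. No filter gave 1 for switchgrass against poplar (30 over all), and a filter outside cellobiose 1 for switchgrass (1847 over all). Without the third maltose library there were 40, 20 and 7 for poplar, switchgrass and switchgrass against poplar, with 8424, 6843 and 26 over all tested genes. Leaving out 1 library of the groups compared gave 0 to 1 for maltose, 5 to 20 for poplar, 0 to 4 for switchgrass and 0 to 1 for switchgrass against poplar. Over all tested genes these fits called 0 to 948, 651 to 3399, 656 to 1628 and 0 to 28. With the replicate number as a block 15 were called for poplar, with 1987 over all tested genes. For maltose, switchgrass and switchgrass against poplar 0 were then called, with 0, 1568 and 4 over all tested genes. The replicate numbers share only a label (correlations of deviations from -0.19 to 0.07). The counts without overlap were 24, 45, 25 and 20. Scaling, chosen after seeing the data, gave 14 for maltose (25%, against 9.77% of all tested genes) and 1 for switchgrass (1.79%, against 20.9%). The other names gave 0, 0, 1 and 0, and those for poplar and for switchgrass against poplar were again set by the choice of genes. Leaving out 1 library, which makes lack of overlap easier to reach, gave 24 to 33, 45 to 50, 25 to 32 and 20 to 38. Except without the third maltose library, the share of all tested genes was not computed for these counts or for the other names. Where any of the counts moved, the cause was not tested. Depth is unknown, so no counting error could be given, and a gene not called is not shown to be unchanged.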
